A study of Daphnia magna with 12 samples.

Results

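Among the 4318 probes measured in whole Daphnia magna, 174 were moderately higher after exposure to zinc, whether the zinc was given as ZnO nanoparticles or as the soluble salt ZnCl2. Daphnia magna is a freshwater crustacean and a standard test species for metal toxicity. Zinc is an essential metal that becomes toxic in excess, and animal cells bind surplus zinc with metallothioneins, move it across membranes with zinc transporters and sense it through the transcription factor MTF-1. ZnO nanoparticles can dissolve in water and release zinc ions, so a nanoparticle is commonly tested beside a zinc salt. The files give array identifiers only, and none of the 4318 identifiers matched the names, locus tags or accessions of the 28335 genes in the RefSeq table used here. No gene, role or sequence could therefore be given to any probe.

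The 174 probes were chosen by their measured values. The mean of the 8 zinc arrays exceeded the mean of the 4 blank arrays by at least 0.4 and less than 1 on the log2 scale, which is a rise of 1.32-fold to 1.98-fold among the probes chosen. In addition, the lowest of the 4 zinc values had to lie above the higher of the 2 blank values, separately among arrays with the exposure sample in the dye Cy3 and among those with it in Cy5. A probe that meets this second condition is called separated here. In all, 337 probes were separated upward, of which 57 differed by 1 or more and 106 by less than 0.4. A further 150 probes had a difference within the chosen range without being separated. The differences of the 174 probes from the blank are therefore given below as a description, and the counts of them that passed a threshold support nothing.

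In the study, daphnids fed on algae in ISO medium received ZnO nanoparticles, ZnCl2 or no added zinc (blank) over 96 h, each zinc form at its EC10, the concentration that immobilises 10% of animals. Medium and zinc were renewed after 48 h, and the labels give 96 hours as the age at sampling. Each group comprised 4 replicates, each a pool of 40 whole animals, and 100 ng of RNA per pool was labelled for 2-colour Agilent arrays. Every pool was hybridised against a common reference mixed from equal aliquots of the 3 groups, with replicates 1 and 2 of each group in Cy3 and replicates 3 and 4 in Cy5. Copper exposures named in the design were not analysed here.

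Levels are given as log2 of the exposure sample's signal over that of the reference, so 0 is the level of the mixture. Array medians over all probes lay between -0.06 and 0.02, and the SD of an array's values between 0.316 and 0.618. The most variable arrays were ZnCl2 replicate 2, ZnO replicate 1 and ZnO replicate 4. On each array, 334 to 1370 values were identical to that of another probe, with the highest number on ZnO replicate 3, where 31 of the 174 probes had such a value. The lowest correlation between arrays of the same dye orientation was -0.32, between blank replicate 2 and ZnO replicate 1. The direction of the ratios was kept, since the dyes are known from the labels and zinc and blank pools may lie on opposite sides of their mixture.

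The mean over the 174 probes was -0.35, -0.41, -0.49 and -0.60 in blank replicates 1 to 4. In ZnO replicates 1 to 4 it was 0.28, 0.33, -0.10 and 0.13, and in ZnCl2 replicates 1 to 4 it was 0.25, 0.37, 0.12 and 0.04. Every zinc array lay above every blank array, and ZnO replicate 3 was the only zinc array whose mean fell below 0. In the blanks, at most 13 of the 174 probes were above the reference level on any array, and on blank replicate 4 none was. The count above the reference was 160 to 167 on the Cy3 zinc arrays and fell to 59 on ZnO replicate 3, 121 on ZnO replicate 4, 128 on ZnCl2 replicate 3 and 89 on ZnCl2 replicate 4. Group means of the array values were -0.46 ± 0.11 (SD, n = 4) in the blank, 0.16 ± 0.19 (SD, n = 4) with ZnO and 0.19 ± 0.14 (SD, n = 4) with ZnCl2. With the mean difference between Cy3 and Cy5 arrays removed, the SDs became 0.06, 0.10 and 0.06. RNA was extracted from whole animals, so more cells of a type and more RNA per cell cannot be told apart.

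**Figure D1:**
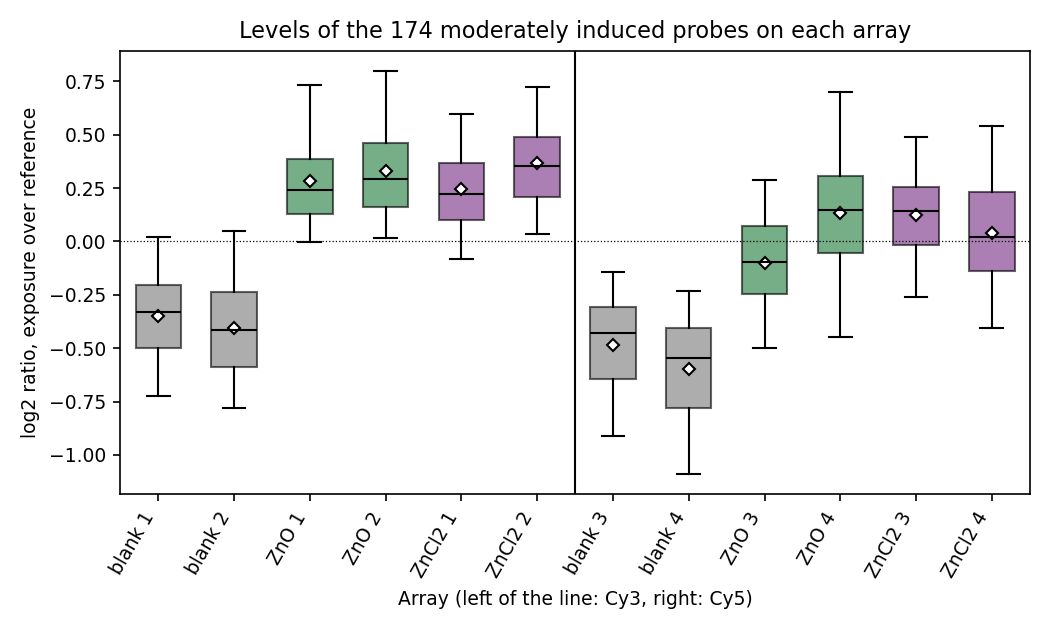
Log2 ratio of exposure over reference of the 174 probes on each of the 12 arrays, by dye: boxes span the middle 50% of probes with the median as a line, whiskers the 5th to 95th percentile, and diamonds are means. The means of all 8 zinc arrays lie above those of all 4 blank arrays, and in each group the Cy5 arrays average below the Cy3 arrays.

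The probes differed from the blank by a median of 0.62 on the log2 scale (range 0.40 to 0.98), against a median of -0.003 for all 4318 probes. The difference for ZnO alone had a median of 0.60 (range 0.32 to 1.02) and that for ZnCl2 a median of 0.64 (range 0.26 to 1.17). These comparisons share the blank arrays. In the limma fit of all 12 arrays with a group mean and a dye term per probe, 139 of the 174 probes were higher with ZnO than in the blank at an adjusted p under 0.05, where 5.77% of all probes were. For ZnCl2 the number was 148, where 6.67% of all probes were higher. Both comparisons called 127 of the probes, where 4.61% of all probes were called in both. In neither comparison were 14 of the 174 probes called, against 3807 of all 4318. These counts follow from the way the probes were chosen on the same 12 arrays, so nothing is read from them against the shares of all probes. Without ZnO replicate 1 the number called for ZnO was 92.

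**Figure D2:**
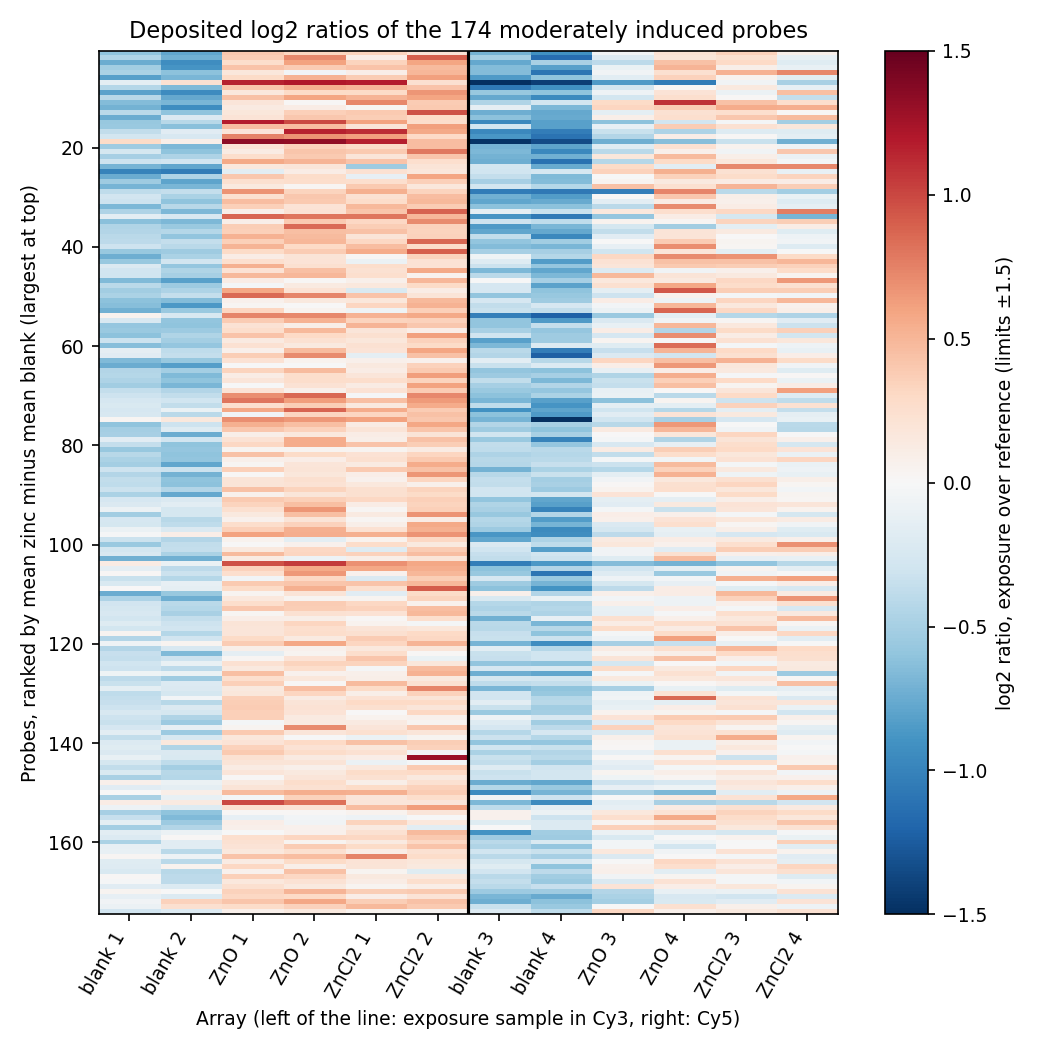
Log2 ratio of exposure over reference (colour, blue below 0 and red above, cut at 1.5 either way) for the 174 probes in rows, ranked by the zinc minus blank difference, on the 12 arrays in columns by dye and group. The blank columns are mostly blue, and ZnO replicate 3 is the zinc column with the fewest probes above 0, at 59.

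Separation within each dye orientation did not always carry over to all arrays together. For 112 of the 174 probes the lowest of the 8 zinc values exceeded the highest of the 4 blank values, where 4.65% of all probes met this. In the other 62 probes a Cy5 zinc array overlapped a Cy3 blank array, or the reverse. The smaller of a probe's 2 separating gaps had a median of 0.20 and ran from 0.003 to 0.66. It was under 0.1 in 41 probes. Among the Cy5 arrays, ZnO replicate 3 was the lowest zinc array for 93 of the 174 probes, and ZnO replicate 4 was the highest for 72. In Cy3, ZnCl2 replicate 2 was the highest zinc array for 80 probes, while ZnCl2 replicate 1 was the lowest for 60. This order of arrays was not counted over all probes, so it is not read as a trait of the 174 probes.

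The probe with the widest gap also had the largest difference from the blank. DM09301P1 measured -0.61, -0.78, -0.71 and -0.91 in the 4 blanks, 0.41, 0.32, -0.05 and 0.22 with ZnO, and 0.33, 0.20, 0.35 and 0.08 with ZnCl2. Its lowest zinc value, in ZnO replicate 3, still lay above all 4 blanks, with gaps of 0.81 among the Cy3 arrays and 0.66 among the Cy5 arrays. Zinc arrays averaged 1.98-fold the blank, and the group means were -0.75 ± 0.13 (SD, n = 4) in the blank, 0.23 ± 0.20 with ZnO and 0.24 ± 0.13 with ZnCl2. DM06442P2 had the next widest gaps of 0.84 and 0.63, with -0.42, -0.66, -1.06 and -0.91 in the blanks, 0.41, 0.53, -0.28 and 0.02 with ZnO, and 0.50, 0.43, 0.14 and -0.12 with ZnCl2. Its zinc values did not overlap its blanks either, although all 6 Cy5 values were lower than their Cy3 counterparts in the same group. DM06726P2, a 1.78-fold rise, read -0.50, -0.47, -0.71 and -0.73 in the blanks, 0.26, 0.39, 0.17 and 0.47 with ZnO, and 0.18, 0.41, 0.09 and -0.09 with ZnCl2. Here ZnO replicate 4 was the highest of all arrays, unlike in the average over the probes. DM07290P3 and DM00740P2 completed the 5 widest gaps, with 1.87-fold and 1.73-fold differences.

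A few probes varied little between the zinc arrays. DM08101P1 had the smallest SD over the 8 zinc arrays, 0.0641. Its values were 0.06, 0.19, 0.08 and 0.21 with ZnO and 0.03, 0.11, 0.17 and 0.12 with ZnCl2, against -0.25, -0.41, -0.43 and -0.84 in the blanks. Its blanks were more spread than its zinc arrays, with blank replicate 4 the lowest. DM01916P2 followed with an SD of 0.0693 and a 1.43-fold difference, and DM06181P1 with 0.0726 and 1.33-fold. DM01916P2 measured -0.40, -0.53, -0.27 and -0.27 in the blanks, 0.25, 0.17, 0.15 and 0.16 with ZnO, and 0.08, 0.14, 0.19 and 0.02 with ZnCl2. All of its 8 zinc values were above the reference level and all 4 blanks below it.

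Among the 10 largest differences were also DM12700P1, DM07845P1 and DM10595P2, each at 1.97-fold, DM04261P2 at 1.95-fold and DM06583P1 at 1.93-fold. DM12700P1 measured -0.52, -0.88, -0.65 and -0.82 in the blanks, 0.43, 0.38, -0.10 and 0.52 with ZnO, and 0.43, 0.47, 0.09 and -0.11 with ZnCl2. Its lowest zinc values were ZnO replicate 3 and ZnCl2 replicate 4, and both lay above every blank. DM08752P1 was more spread, with -0.45, -0.72, -0.51 and -1.15 in the blanks, 0.39, 0.72, -0.20 and 0.19 with ZnO, and 0.10, 0.89, 0.24 and -0.12 with ZnCl2. Its zinc values still did not overlap its blanks, with ZnO replicate 3 the lowest zinc array. One probe rested on a single high array and was picked out after its values were seen. DM11164P1 measured 0.10, 1.29, -0.32 and 0.07 in ZnCl2 replicates 1 to 4. It was -0.11, -0.23, -0.33 and -0.40 in the blanks and 0.22, 0.14, 0.02 and 0.05 with ZnO, so the low ZnCl2 array, replicate 3, lay only just above both Cy5 blanks and below both Cy3 blanks.

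Values near the limits of the chosen range lay close together. At the lower limit, DM02574P1, DM00690P1 and DM10812P1 were just inside, each at 0.40, followed by DM08173P2 and DM14036P1 at 0.41. DM14408P1 and DM02825P1 were just below the limit and also round to 0.40, and DM05596P2, DM11389P4 and DM02059P1 were at 0.39. At the upper limit, the nearest probe inside was DM09301P1 at 0.98. The nearest separated probes beyond it were DM08424P1 at 1.02, DM11721P3 at 1.05, DM08710P1 at 1.06, DM00097P2 at 1.07 and DM09310P1 at 1.08.

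The ZnO minus ZnCl2 difference was not itself a criterion, but the rule limited it. Every ZnO and every ZnCl2 array had to lie above the blanks of its dye, which leaves out probes raised by 1 form alone and probes with widely spread zinc arrays. The values below therefore hold for probes raised by both forms, and the shares of all probes beside them are not a like-for-like comparison. In limma, 0 of the 174 probes differed between ZnO and ZnCl2 at an adjusted p under 0.05, as 0% of all 4318 probes did. The smallest adjusted p among the 174 probes was 0.769. At an unadjusted p under 0.05, 16 of the 174 probes (9.2%) differed, against 5.7% of all probes, with 13 lower and 3 higher in ZnO. Over all probes the split was 145 lower and 101 higher. The ZnO minus ZnCl2 difference ran from -0.42 to 0.38 with a median of -0.02, the same median as over all probes. It was below 0 in 104 of the 174 probes (59.8%) and in 55.8% of all probes. When every array was first centred on its median, the difference was below 0 in 87 of the 174 probes.

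The intervals describe the measured differences between the 2 zinc forms. The rule had already limited the spread of these same zinc values, so the intervals do not bound the true difference. The 95% interval of the ZnO minus ZnCl2 difference lay within a 2-fold difference in either direction for all 174 probes, and within 1.5-fold for 155 of them (89.1%). Among the other separated probes, it lay within 1.5-fold for all 106 below the range and for 24 of the 57 above it. Over all probes the shares were 90.4% within 2-fold and 78.7% within 1.5-fold, without the limit that separation sets on the spread of the zinc arrays. The distance from the estimate to either end of the interval had a median of 0.27 on the log2 scale, against 0.26 over all probes. The difference had the same sign in the Cy3 and in the Cy5 arrays in 86 of the 174 probes (49.4%), and in 51.1% of all probes. Across the 174 probes its values in the 2 orientations correlated at -0.134, and across all probes at -0.158, where the probes of an orientation share the same 4 arrays.

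**Figure D3:**
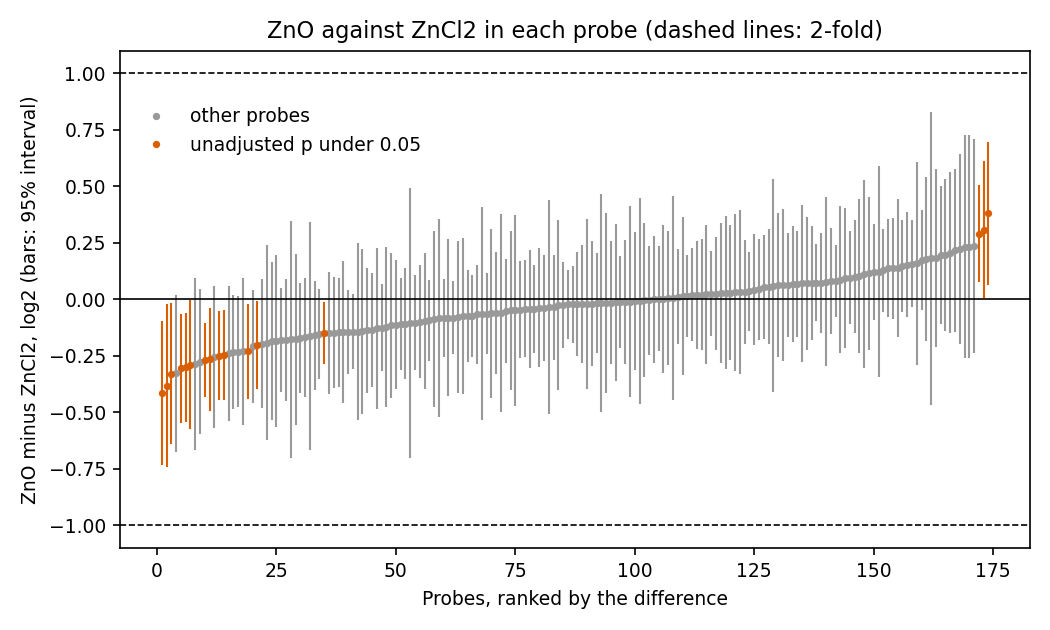
ZnO minus ZnCl2 (log2, with its 95% interval) for each of the 174 probes, ranked by the difference, with dashed lines at a 2-fold difference and the 16 probes of unadjusted p under 0.05 in orange. All 174 intervals lie within the dashed lines.

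The 5 probes with the smallest p in each direction illustrate the size of the differences. DM06070P2 had the smallest p of the 174 probes. It measured 0.07, 0.10, -0.02 and -0.04 with ZnO, 0.24, 0.39, 0.22 and 0.33 with ZnCl2, and -0.47, -0.59, -0.41 and -0.40 in the blanks. All 4 ZnO values lay below all 4 ZnCl2 values, which gave -0.27 on the log2 scale (-0.43 to -0.10 at 95%, adjusted p = 0.769 in limma). DM10397P1 had the most negative difference, -0.42 (-0.73 to -0.10 at 95%, adjusted p = 0.841 in limma). Its values were 0.09, 0.22, 0.16 and 0.25 with ZnO and 0.42, 0.89, 0.31 and 0.76 with ZnCl2, over blanks of -0.46, -0.67, -0.14 and -0.33. The ZnO arrays again lay below every ZnCl2 array, and the ZnCl2 arrays were the more spread. DM06975P4, DM12534P4 and DM06072P3 followed with differences of -0.31, -0.25 and -0.30. DM10571P3, one of the 10 largest rises over the blank, measured 0.17, -0.04, -0.06 and 0.25 with ZnO, 0.10, 0.50, 0.52 and 0.72 with ZnCl2, and -0.48, -0.62, -0.65 and -1.09 in the blanks. Its ZnO and ZnCl2 values overlapped, at a difference of -0.38 (-0.74 to -0.02 at 95%, adjusted p = 0.841 in limma).

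In the other direction, DM05833P1 was 0.49, 0.50, 0.49 and 0.19 with ZnO, 0.25, 0.06, 0.15 and 0.04 with ZnCl2, and -0.30, -0.50, -0.41 and -0.68 in the blanks. ZnO replicate 4 fell among the ZnCl2 values, and ZnO minus ZnCl2 was 0.29 (0.08 to 0.50 at 95%, adjusted p = 0.841 in limma). DM05282P3 had the most positive difference, 0.38 (0.06 to 0.70 at 95%). It measured 0.99, 0.83, -0.16 and -0.49 with ZnO, 0.18, 0.18, -0.42 and -0.29 with ZnCl2, and 0.12, 0.14, -0.68 and -0.95 in the blanks. In Cy3 both ZnO values lay above both ZnCl2 values, whereas in Cy5 ZnO replicate 4 was the lowest zinc array. DM12667P3 at 0.31, DM06726P2 at 0.17 and DM09000P2 at 0.16 completed the 5. None of these differences passed the adjusted threshold.

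The ZnO minus ZnCl2 difference was also read along the size of the rise. Ordered by the difference from the blank, the 174 probes fell into groups of 44, 43, 43 and 44, whose ZnO minus ZnCl2 medians were -0.03, -0.04, -0.02 and -0.01. The separated probes below the range had a median of -0.01, with 58 of 106 lower in ZnO. The 57 separated probes above the range had a median of -0.25, with 48 of 57 lower in ZnO, and 47 of 57 after centring. For those 57 probes the median difference from the blank was 1.34 with ZnO and 1.57 with ZnCl2, and 0 passed the adjusted threshold between the 2 forms in limma while 24 had an unadjusted p under 0.05. The difference between these bands of probes was not tested.

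The ratios also differed by the dye of the exposure sample. The rule compared zinc with blank within each dye and set no condition on the difference between the dyes. The dye term, Cy5 minus Cy3 at equal group, had a median of -0.18 in the 174 probes (range -1.65 to 0.38) and of -0.03 over all probes. It was below 0 in 132 of the 174 probes (75.9%), against 54.1% of all probes. In limma it passed the adjusted threshold in 70 of the 174 probes (40.2%), against 36.7% of all probes. It was called lower in Cy5 in 62 (35.6%), against 22% of all probes, and higher in 8 (4.6%), against 14.8% of all probes. Its median was -0.01 in the separated probes below the range and -0.14 in those above it. The cause of this shift was not tested.

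The largest dye terms exceeded the zinc differences themselves. DM08678P1 measured 0.28, 0.08, -1.47 and -1.34 in the blanks, 1.34, 1.34, -0.73 and -0.64 with ZnO, and 1.17, 0.47, -0.34 and -0.72 with ZnCl2. Both Cy5 arrays of each group lay below 0, so zinc arrays in Cy5 were lower than blanks in Cy3, and the dye term was -1.65 (SE 0.14, limma adjusted p = 4.94e-05). DM08304P2 was also far lower in Cy5, with -0.15, 0.23, -1.89 and -1.42 in the blanks, 1.16, 1.20, -0.85 and -1.05 with ZnO, and 1.18, 0.24, -0.05 and -0.49 with ZnCl2. Its Cy5 zinc arrays lay below both Cy3 blanks except ZnCl2 replicate 3, which fell between them. The dye term was -1.60 (SE 0.22, limma adjusted p = 0.000355), and its Cy3 gap was only 0.01, between blank replicate 2 and ZnCl2 replicate 2. DM10051P1 had the next lowest dye term, -1.26, and these 3 probes also had the largest SDs over the 8 zinc arrays, 0.947 in DM08678P1. At the other end, the dye terms of DM06544P1, DM14488P1 and DM09288P4 were 0.38, 0.36 and 0.34, of which that of DM14488P1 did not pass the threshold.

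Because the rule used both dye orientations, the measure could be looked up again only by choosing on one and reading the other. Selected on the Cy3 arrays alone, by a difference of 0.4 to less than 1 and separation, were 312 probes, 145 of them among the 174. In the Cy5 arrays, which had no part in that selection, 166 of the 312 (53.2%) were separated upward, against 15.9% of all probes. The Cy5 difference was above 0 in 284 of the 312 (91.0%), against 50.6% of all probes. Its median was 0.37, below the 0.60 measured in the arrays used for the selection, and 140 of the 312 were again between 0.4 and 1. A limma fit of the 6 Cy5 arrays called 4 of the 312 higher at an adjusted p under 0.05 (1.28%), no more than the 1.57% of all probes. Probes with Cy3 differences of 1 or more are not among the 312. At an unadjusted p under 0.05 it had 133 of the 312 higher (42.6%), against 10.6% of all probes.

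The reverse selection, on the Cy5 arrays alone, gave 251 probes, 150 of them among the 174. In the Cy3 arrays, 169 of the 251 (67.3%) were separated upward, against 18.4% of all probes. The Cy3 difference was above 0 in 211 (84.1%), against 50.1% of all probes, with a median of 0.48 where the selecting arrays gave 0.59. The limma fit of the 6 Cy3 arrays called 66 of the 251 higher at the adjusted threshold (26.3%), against 3.45% of all probes. At an unadjusted p under 0.05 it had 159 higher (63.3%), against 12.3% of all probes. In both look-ups 0 probes were called lower. Probes measured on the same pools are not independent, so the shares in both look-ups carry no measure of error between pools.

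**Figure D4:**
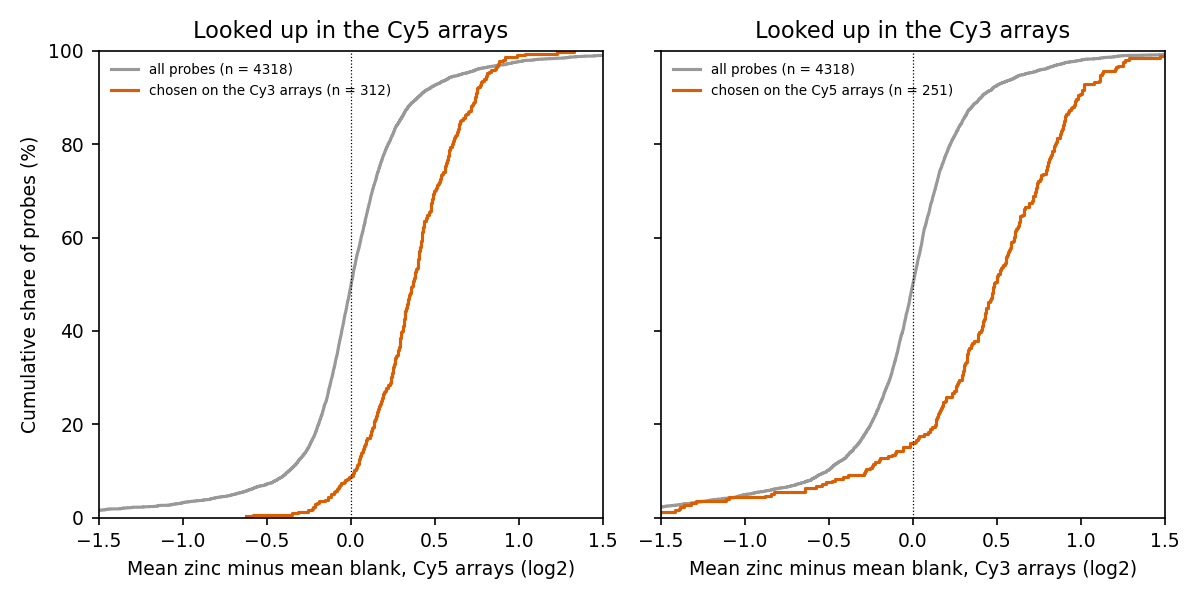
Cumulative share of probes (%) by their zinc minus blank difference (log2) in the Cy5 arrays (left) and in the Cy3 arrays (right), for all 4318 probes in grey and for those selected on the other orientation in orange. The orange curves lie mostly to the right of the grey ones, with medians of 0.37 in Cy5 and 0.48 in Cy3.

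Within the 174 probes the difference from the blank was larger in Cy3 than in Cy5 for 108 (62.1%), with medians of 0.66 and 0.57. It was larger in Cy3 for 63.2% of the 106 separated probes below the range and 82.5% of the 57 above it, and for 50.3% of all probes. After group and dye means were removed, the spread of a probe between replicates had a median SD of 0.179, against 0.171 for all probes. The median pairwise correlation of residuals across the 12 arrays was 0.184 among the 174 probes. It was 0.277 among the 57 separated probes above the range, 0.04 among the 106 below it and 0.004 among all probes. On ZnO replicate 3 only 28 of the 174 residuals were above 0, on ZnO replicate 4 118 were, and on blank replicate 3 145 were. The matching counts over all probes are not given here, so a shift of a whole array cannot be told apart from one of the 174 probes. ZnO replicates 4 and 3 held 16.5% and 14.3% of the residual variation, against 15.1% and 7.97% over all probes.

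Since equal amounts of the groups make up the reference, the level of the blank against it follows arithmetically from the rise with each zinc form if the mixture and the ratios are unbiased. The expected blank level of the 174 probes averaged -0.46, as did the observed level. Observed minus expected had a median of -0.007, ran from -0.16 to 0.18, and was within 0.1 for 165 of the 174 probes (94.8%), against 86.0% of all probes. The expected level was 0.16 for ZnO and 0.20 for ZnCl2, against 0.16 and 0.19 observed. Had the ratios been reference over exposure, the expected mean of the blank columns would have been -0.39, and 134 of the 174 probes lay nearer the level for exposure over reference. Expected and observed values use the same arrays, so they describe the scale of the ratios and are no test of the rise.

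**Figure D5:**
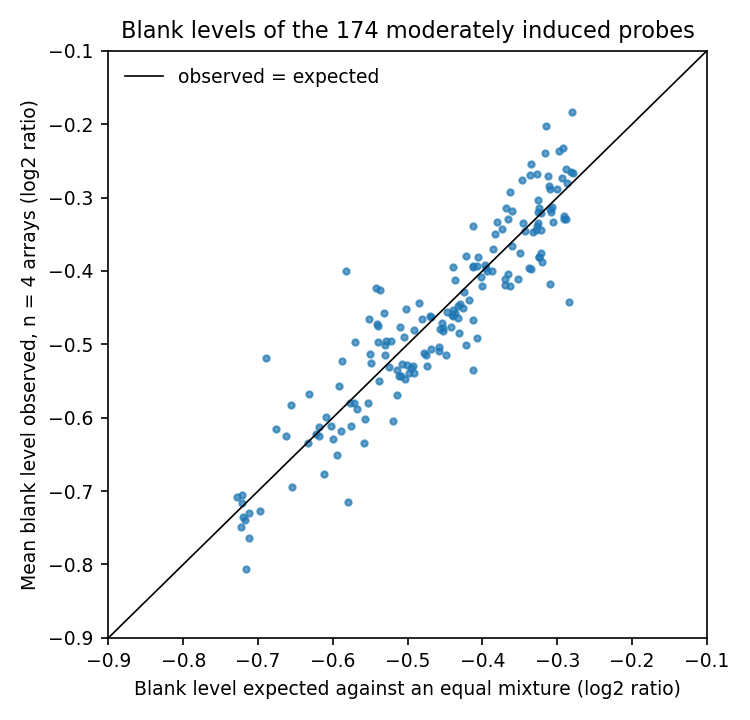
Observed mean log2 ratio of the 4 blank arrays against the level expected from an equal mixture, for each of the 174 probes, with the line of equality. Observed minus expected lies between -0.16 and 0.18, with a median of -0.007.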

How the data were processed

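The deposited values are log2 ratios, complete for 4318 probes on 12 arrays. The authors used limma, per the submitters' processing notes, while background correction, within-array normalization and probe selection are steps not given in the sources used here. Direction and log base are not stated in the table. Observed means over all probes followed those expected of an equal mixture most nearly when read as log2 of exposure over reference (slope 0.798, where 1 is a perfect match). Read as natural logs the slope was 0.574, as log10 it was 0.297, and with the ratio inverted -0.584. The columns correlated between orientations in the ZnO and ZnCl2 contrasts with blank (0.526 and 0.659), so they were taken as already turned one way.

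The values as deposited were fitted with lmFit and eBayes of limma 3.58.1 in R 4.3.3, with 3 group means and a dye term over all 12 arrays and 8 residual degrees of freedom. P-values are two-sided, Benjamini-Hochberg adjusted over all 4318 probes, and called under 0.05. The number of arrays limits the precision. Replicates are separate pools per the labels, and separate cultures are not stated. The p-values therefore reflect the spread among these pools alone, which may be technical. Residuals of same-numbered arrays correlated over 0.1 in 1 of 12 pairs, blank and ZnO replicate 1, at 0.45. The fit itself lowers the correlations of such residuals, so this check cannot exclude pairing by number. The main fit did not pair the arrays.

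The probes, lists and tests were chosen with earlier results of these data known. Named probes are the 10 with the largest zinc difference, the 5 at each side of each limit, the 5 with the smallest p for ZnO against ZnCl2 in each direction, the 5 with the widest gaps, and the 3 at each end of the dye term and of the zinc SD, with the exception stated in the text. Zinc and stress gene lists could not be used because no identifier matched a gene. Alternatives were single orientations, no dye term, a replicate block, array centring, array weights, other thresholds and bounds, each array left out, and, added after seeing the data, the 3 most variable arrays left out.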

Additional observations from a re-analysis of the deposited data

Results flagged for a closer look

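Groups of 4 arrays were examined over the named probes with the mean difference between Cy3 and Cy5 arrays removed. Of 108 such groups, 5 held 1 array whose gap to the nearest of the other 3 was large against the range of all 4. Chance flags about 1 in 20, or 5.4. Such a gap can be small on the log2 scale where the other 3 lie close together. DM08173P2 was -0.21 in ZnO replicate 3, with the other ZnO arrays at 0.03 to 0.04. DM14036P1 was -0.22 in blank replicate 1, with the other blanks at -0.28 to -0.27. DM12667P3 was 0.63 in ZnO replicate 4, with the others at 0.20 to 0.27. DM06975P4 was -0.29 in blank replicate 3, with the others at -0.62 to -0.57. DM07290P3 was -0.77 in blank replicate 2, with the others at -0.60 to -0.56.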

How the results depend on the processing

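ZnO against ZnCl2 had 0 probes past the threshold in limma under all 22 alternatives, the replicate block included, among the 174 probes and among all 4318. The mean ZnO minus ZnCl2 difference of the 174 probes was -0.03. It ranged from -0.06 to 0.02 with 1 array left out and was above 0 without ZnO replicate 3. Leaving out a blank array cannot change this difference, so only the zinc arrays left out bear on it. Calls against the blank varied with the setting. For ZnO over all probes (384) they were 50 on the Cy3 arrays, 38 on the Cy5 arrays, 166 with no dye term, 146 without the 3 most variable arrays, 698 at an adjusted p under 0.1, and 206 to 489 with 1 array left out (206 without ZnO replicate 1, 225 without blank replicate 4, 247 without blank replicate 1). Among the 174 probes (139) they were 11, 0, 65 and 50 under the first 4 of these and 92 to 146 with 1 array left out. For ZnCl2 over all probes (389) they were 88, 64, 191 and 257, then 588 at 0.1 and 234 to 432 with 1 array left out (234 without ZnCl2 replicate 3, 239 without blank replicate 1). Among the 174 probes (148) they were 22, 6 and 82 on Cy3, on Cy5 and with no dye term, and 106 to 159 with 1 array left out. With the replicate block, ZnO had 268 calls and 103 among the 174 probes, and ZnCl2 285 and 123. The single-orientation fits hold 6 arrays each, and the cause of the other shifts was not tested. The rule found 324 probes with no separation asked, 162 on centred arrays (161 of them among the 174), 224 with a lower bound of 0.3, 128 with 0.5, and 166 to 203 with 1 array left out. With separation as the only criterion, 42.4% of probes selected on Cy3 were separated in Cy5 and 49.1% of those selected on Cy5 in Cy3. Signal over background could not be assessed, because probe intensities were not used here.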
